A study of Mus musculus with 28 samples.

Results

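The genes described here are 10 transcription factor genes of the astrocyte lineage, Sox9, Sox2, Nfia, Nfib, Nfix, Hes5, Id3, Id4, Rorb and Lhx2. They were chosen by name for their function, with earlier results of these data known, and make up 10 of the 53342 gene identifiers counted. They were followed through 28 libraries of the mouse cerebral cortex, from mice with a conditional knockout (cKO) and from control (Ctrl) mice. Bulk RNA-Seq covered 4 cKO and 4 Ctrl mice at postnatal day 24 (P24) and as many at P17, and translating ribosome affinity purification (TRAP-Seq) covered 3 cKO and 3 Ctrl mice at P24, each with an Input library of the whole homogenate and an IP library of RNA bound to tagged ribosomes. The cKO mice carried mGFAP-Cre and floxed alleles of the targeted gene (genotype mGFAP-Cre with loxP/loxP), while Ctrl mice were littermates of matching sex with loxP/loxP or loxP/+ alleles. All strains were kept on the C57BL/6J background. In the TRAP-Seq mice the ribosomal protein L10a fused to EGFP was expressed under the mGFAP-Cre driver, so the IP RNA is enriched for that of cells in which that Cre was active. The Ctrl mice of this experiment are taken to carry the driver too, although their genotype is given without it. With the driver, loxP/+ is the study's conditional heterozygous genotype and loxP/loxP its cKO genotype. The alleles of the TRAP-Seq Ctrl mice, and whether they kept both copies of the targeted gene, are therefore not settled. The genotype of the bulk Ctrl mice is given without the driver, so Cre and the loss of the targeted gene cannot be told apart in bulk.

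Several of these proteins act at successive points of astrocyte formation. Sox9 and Sox2 are SOX factors of neural progenitors, and Sox9 turns on Nfia. The NFI family (Nfia, Nfib and Nfix) opens glial genes and favours glial over neuronal output. Hes5 is a repressor switched on by Notch signalling, Id3 and Id4 are helix-loop-helix proteins without a DNA-binding region that are switched on by BMP signalling, and the LIM homeobox factor Lhx2 and the nuclear receptor Rorb are known as cortical patterning genes, Rorb also for layer 4 neurons. Most of the genes described here go on being transcribed in mature cortical astrocytes, while Nfix, Nfib, Nfia, Lhx2 and Rorb are also made in neurons.

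All 10 are protein-coding genes present in each table. On the GRCm38 build, with exonic lengths from GENCODE M21, the SOX genes are Sox9 (ENSMUSG00000000567, chr11:112782224-112787760, plus strand, 4135 bases) and Sox2 (ENSMUSG00000074637, chr3:34650405-34652461, plus strand, 2057 bases). The NFI genes are Nfia (ENSMUSG00000028565, chr4:97772734-98118874, plus strand, 10891 bases), Nfib (ENSMUSG00000008575, chr4:82290173-82705750, minus strand, 14957 bases) and Nfix (ENSMUSG00000001911, chr8:84699876-84800344, minus strand, 7351 bases). The Notch and BMP targets are Hes5 (ENSMUSG00000048001, chr4:154960923-154962371, plus strand, 1363 bases), Id3 (ENSMUSG00000007872, chr4:136143497-136145755, plus strand, 1791 bases) and Id4 (ENSMUSG00000021379, chr13:48261228-48266026, plus strand, 3849 bases). Rorb (ENSMUSG00000036192) lies at chr19:18930605-19111196 on the minus strand with 11076 exonic bases, and Lhx2 (ENSMUSG00000000247) at chr2:38339281-38369733 on the plus strand with 4393. The strand setting of the counting is not given in the sources used here, so reads from genes that overlap on opposite strands cannot be told apart. This touches Hes5 most, since 433 of its exonic bases (31.8%) are shared with the opposite-strand transcript Gm20421; the overlaps of Id4 with A330033J07Rik and Gm49291 (82 and 171 bases) and of Nfix with G430095P16Rik (137 bases) are short beside their exons. Sox2 lies inside an intron of Sox2ot on the same strand and shares no exonic base with it.

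Promoter sequence is shown for Hes5, Id4 and Lhx2, the genes for which the 250 bases before a start held both motifs marked below. Hes5 is the factor that stood apart at P17, and Id4 and Lhx2 are among those that fell in the IP of cKO mice. Each line gives the 250 bases before the RefSeq transcription start (GRCm38.p6), 5′ to 3′ on the strand of the gene, which is the plus strand for all of them. Capitals mark every match, on either strand, to TGGGAA, the core read by the Notch effector RBPJ, or to GGCGCC, a GC-rich site of SMAD proteins; TTCCCA is TGGGAA on the other strand.
Hes5, chr4:154960673-154960922: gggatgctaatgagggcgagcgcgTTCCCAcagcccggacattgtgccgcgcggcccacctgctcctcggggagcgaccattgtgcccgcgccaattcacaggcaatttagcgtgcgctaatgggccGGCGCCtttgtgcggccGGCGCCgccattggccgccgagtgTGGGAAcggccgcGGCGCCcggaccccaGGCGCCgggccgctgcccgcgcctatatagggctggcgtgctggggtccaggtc
Id4, chr13:48260866-48261115: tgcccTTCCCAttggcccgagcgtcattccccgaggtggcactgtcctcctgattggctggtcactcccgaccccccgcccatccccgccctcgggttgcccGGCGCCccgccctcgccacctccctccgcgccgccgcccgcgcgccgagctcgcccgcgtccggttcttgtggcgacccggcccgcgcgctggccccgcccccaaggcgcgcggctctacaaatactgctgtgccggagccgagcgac
Lhx2, chr2:38339031-38339280: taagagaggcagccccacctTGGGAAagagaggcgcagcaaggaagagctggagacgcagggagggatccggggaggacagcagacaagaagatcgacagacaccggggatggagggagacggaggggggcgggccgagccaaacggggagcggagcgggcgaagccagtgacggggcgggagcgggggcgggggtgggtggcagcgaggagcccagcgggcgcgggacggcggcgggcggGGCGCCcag
The Hes5 window held TGGGAA at 226 and 82 bases before the start and GGCGCC at 123, 106, 69 and 54 bases. In the Id4 window TGGGAA lay at 245 bases and GGCGCC at 148 bases, and in the Lhx2 window they lay at 230 and 9 bases. Among 32851 mouse promoters of this length, 21.59% hold TGGGAA and 9.59% hold GGCGCC on either strand. These windows are GC-rich, at 71.6%, 75.6% and 72.8% against a median of 52.4%, and a GC-rich window holds GGCGCC more readily. Of the 10 genes, 8 had promoters in the table used, 13 windows in all, and Sox9 and Nfib had none there. Outside the windows shown, TGGGAA was in a window of Rorb and in another window of Lhx2, and GGCGCC was in a window of Nfix. The windows of Sox2, Nfia and Id3 held neither, although Nfia and Id3 also fell in the IP of cKO mice, and Rorb was not called there. The NFI half-site TTGGCA (12.28% of promoters) and the TATA box TATAAA (12.37%) were in none of the 13 windows, and the SOX site ACAAAG (16.46% of promoters) was in windows of Sox2, Nfix and Hes5. A match is a run of letters and not a measured binding site.

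The libraries held 8855488 to 14575306 counts on genes in bulk and 18433087 to 27242445 in TRAP-Seq, so a gene with 3 counts stands at 0.206 to 0.339 CPM (the count relative to the TMM-scaled library size) in bulk and at 0.110 to 0.163 CPM in TRAP-Seq. This floor covers counting error only, and all 10 genes were far above it. In Ctrl mice all 12 astrocyte marker genes were higher in IP than in Input, with a median log2 fold change of 3.59, while 7 of 8 neuronal, 7 of 8 oligodendrocyte lineage, 8 of 8 microglial and 6 of 6 endothelial markers were lower and 3 of 5 tested mural markers were higher. No marker gene was at 0 in any library. In the TRAP-Seq table, cKO Input replicate 1 stood apart: chi-square per degree of freedom was 85.2 and 89.8 against the other cKO Input libraries, and 8.99 between those, and results that rest on it are given with and without it.

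In Ctrl IP, the level per kb of exon was highest for the helix-loop-helix factors Id3 and Id4 and for Sox2, and lowest for the NFI factors and Rorb. Id3 stood at 323 ± 20.3 CPM per kb (SD, n = 3), followed by Id4 at 221 ± 6.81, Sox2 at 172 ± 8.60, Hes5 at 121 ± 43.7, Lhx2 at 65.0 ± 0.891 and Sox9 at 37.3 ± 5.76. Below them came Nfix at 22.5 ± 1.93, Nfib at 10.8 ± 0.557, Rorb at 9.07 ± 0.721 and Nfia at 8.54 ± 0.343. Only Rorb and Nfia had overlapping libraries among neighbours in this order. In P24 bulk Ctrl cortex the order was another: Nfix was highest at 37.1 ± 4.17 CPM per kb (n = 4) and separate from all others, Lhx2 was next at 11.99 ± 0.887, Id4, Sox2, Id3, Nfib, Hes5, Nfia and Sox9 followed from 9.52 to 4.64 with every neighbour overlapping, and Rorb was lowest at 3.27 ± 0.347. The tables were scaled separately, so only the order within a group is read here.

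**Figure D1:**
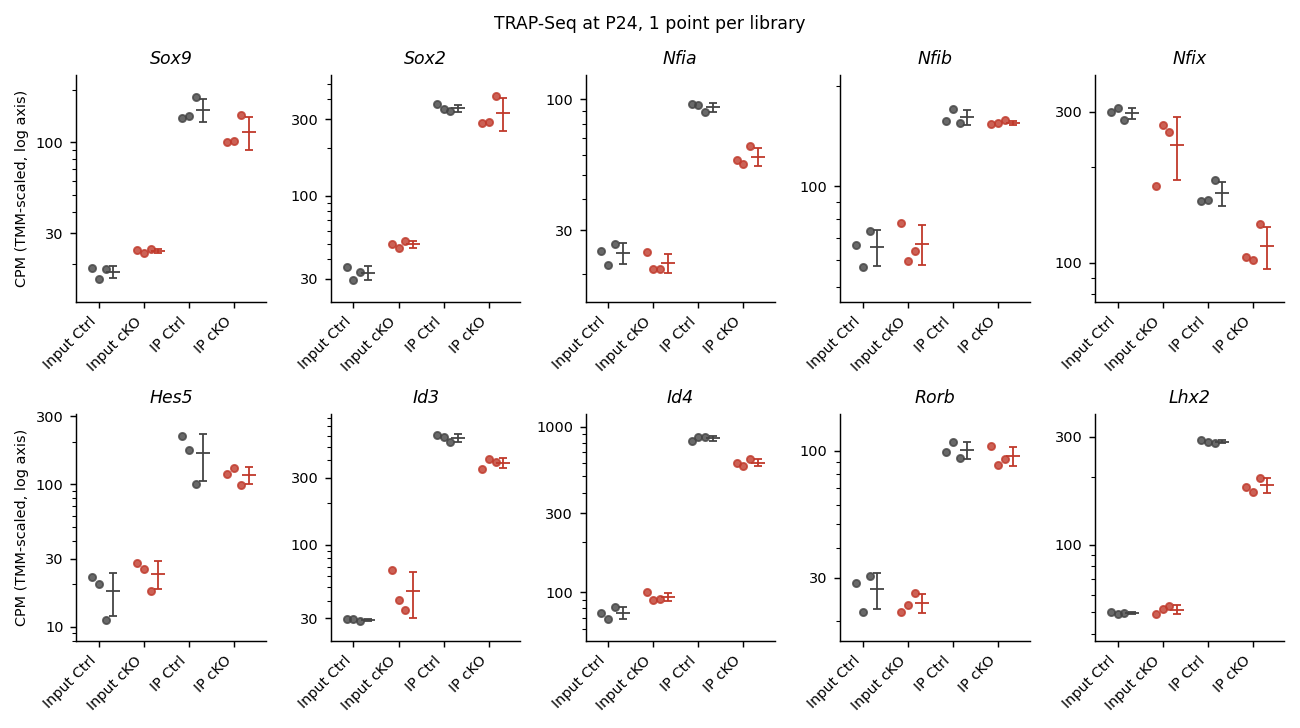
TMM-scaled CPM (log axis, a separate scale per panel) of the 10 genes in the TRAP-Seq libraries, 1 point per library, with the mean and SD of each group (n = 3) beside the points. All but Nfix sit higher in IP than in Input for both genotypes, and Nfia, Nfix, Id3, Id4 and Lhx2 sit lower in every cKO IP library than in every Ctrl IP library.

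The comparison of IP with Input in Ctrl mice asks which factors are enriched in the RNA captured from Cre-expressing cells. Of the 10 factors, 9 were higher in IP and Nfix was lower, all of them called by edgeR's quasi-likelihood test at a Benjamini–Hochberg adjusted p under 0.05; of the 24385 genes tested, 35.3% were called higher and 35.7% lower, and 74.4% did not overlap between fractions. The members' median log2 fold change was 2.79, against -0.03 for all genes tested and 3.59 for the astrocyte markers. Id3 led with a log2 fold change of 4.29 ± 0.10 (SE), from 29.7, 29.4 and 28.8 CPM in Input to 608, 590.0 and 538 CPM in IP. Id4 (3.49 ± 0.10), Sox2 (3.42 ± 0.11), Hes5 (3.19 ± 0.29) and Sox9 (3.08 ± 0.13) were close behind, and Lhx2 (2.51 ± 0.09), Nfia (1.92 ± 0.10), Rorb (1.89 ± 0.13) and Nfib (1.28 ± 0.10) were enriched less. Nfix was at 298, 307 and 283 CPM in Input and at 157, 158 and 182 CPM in IP, a log2 fold change of -0.85 ± 0.10 (adjusted p = 1.11e-05). Every Nfix IP library was thus below every Input library, the reverse of its relatives Nfia and Nfib. Summed neuronal markers were lower in Ctrl IP than in Input but not absent, at 2267 to 2746 CPM against 5192 to 5917 CPM, and the part of neuronal RNA in the IP levels of factors also made in neurons was not tested. Rorb was higher in IP although the 5 genes listed for layer 4 neurons had a median of -0.56, with 3 lower, 1 higher and 1 not called.

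In cKO mice the same 9 genes were higher in IP and Nfix was again lower (adjusted p = 0.0029), against 27.8% of 24011 genes called higher, 28.5% called lower and 63.9% without overlap. The median of the 10 was 2.13. Id3 (3.02 ± 0.25), Sox2 (2.73 ± 0.20), Id4 (2.68 ± 0.15), Hes5 (2.29 ± 0.20) and Sox9 (2.26 ± 0.18) stayed at the top by their log2 fold change, followed by Rorb (1.99 ± 0.16), Lhx2 (1.81 ± 0.15), Nfia (1.40 ± 0.14), Nfib (1.19 ± 0.15) and Nfix (-1.08 ± 0.22). Since IP and Input came from the same mouse, they pair by design, and fitting the replicate block called all 10 factors in both genotypes as well. Without cKO Input replicate 1 all 10 were called too, with Id3 at 3.345, Nfix at -1.24 and Nfib at 1.31.

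In the direct comparison of cKO with Ctrl in the IP fraction, 5 of the 10 factors fell in cKO and none rose. Of the 23864 genes tested, 20.0% were called, 8.42% as lower and 11.6% as higher, and 37.7% did not overlap between genotypes. All 10 log2 fold changes were below 0 (Sox2 turned to 0.03 or 0.02 without cKO replicate 1 or 2), with a median of -0.49 against -0.01 for all genes tested. Scaling by library size alone lowered the median of all genes to -0.13 and that of the factors to -0.60.

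Of the NFI family, Nfia was at 95.6, 94.8 and 88.7 CPM in Ctrl IP and at 57.0, 55.3 and 64.9 CPM in cKO IP. The groups were well apart, at a log2 fold change of -0.65 ± 0.10 (edgeR adjusted p = 0.0016). Nfix fell from 157, 158 and 182 CPM to 104, 102 and 133 CPM, without overlap, by 0.54 on the log2 scale (SE 0.12, edgeR adjusted p = 0.0105); without cKO replicate 2 its call was lost (adjusted p = 0.0555). Nfib, which shares the binding sequence of both, was at 157, 170.5 and 155 CPM in Ctrl and 154, 155 and 158 CPM in cKO, and its log2 fold change of -0.04 ± 0.09 did not pass the test (adjusted p = 0.775). The groups of Nfib overlapped.

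Among the BMP and Notch targets, Id3 fell from 608, 590.0 and 538 CPM in Ctrl IP to 348, 411 and 390 CPM in cKO IP, with a log2 fold change of -0.59 ± 0.10 and an edgeR adjusted p of 0.0029. Id4, at 821, 865 and 868 CPM in Ctrl and 601, 580.0 and 639 CPM in cKO, had a log2 fold change of -0.48 ± 0.09 (edgeR adjusted p = 0.0050). For both, the highest cKO library stayed below the lowest Ctrl library. Hes5 was at 218, 176 and 101 CPM in Ctrl and 118, 131 and 99.3 CPM in cKO, and the groups overlapped because Ctrl replicate 3 was low. Its log2 fold change of -0.50 ± 0.22 was not called (edgeR adjusted p = 0.138). Over 14 alternatives it ran from -0.75 to -0.25, with an edgeR or DESeq2 adjusted p up to 0.483, and 3 of them called it. Without Ctrl replicate 3 it was -0.75 with an edgeR adjusted p of 0.0094. That mouse was also the lowest Ctrl mouse for Hes5 in Input, at 11.1 CPM against 22.3 and 20.0, and Gm20421, which shares exonic bases with Hes5, had a log2 fold change of -0.54 in IP (adjusted p = 0.105).

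Lhx2 fell from 289, 285 and 282 CPM in Ctrl IP to 179, 171 and 198 CPM in cKO IP, a log2 fold change of -0.63 ± 0.10 with an edgeR adjusted p of 0.0014. Every cKO library of Lhx2 lay below every Ctrl library. Rorb was at 99.1, 109 and 93.3 CPM in Ctrl and 105, 87.6 and 92.9 CPM in cKO, with overlapping groups and a log2 fold change of -0.07 ± 0.10 that was not called (edgeR adjusted p = 0.683).

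The SOX factors did not pass the test in IP. Sox9 was at 139, 142 and 182 CPM in Ctrl and 101, 101 and 143 CPM in cKO, overlapping through cKO replicate 3, with a log2 fold change of -0.41 ± 0.16 (edgeR adjusted p = 0.0846, and 0.0112 without that library). Over 14 alternatives the Sox9 value ran from -0.60 to -0.28, with an edgeR or DESeq2 adjusted p up to 0.284, and 5 of them called it. Sox2 was at 373, 351 and 338 CPM in Ctrl and 287, 288 and 419 CPM in cKO, so that cKO held both the lowest and the highest libraries, at -0.09 ± 0.14 (adjusted p = 0.723). In cKO IP replicate 3 the summed level of the 12 astrocyte markers was also the highest of the cKO IP libraries, 24321 CPM against 17603 and 19361, and the Ctrl IP libraries lay between 21653 and 28467 CPM. The part of this sum in the levels of the factors was not tested, and in bulk tissue or its IP fraction fewer cells of a type and less RNA per cell cannot be told apart. With all 12 TRAP-Seq libraries in a joint fit, 3 factors were called lower in IP (Nfia, Id4 and Lhx2), while Nfix (adjusted p = 0.0625) and Id3 (adjusted p = 0.0756) were not.

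**Figure D2:**
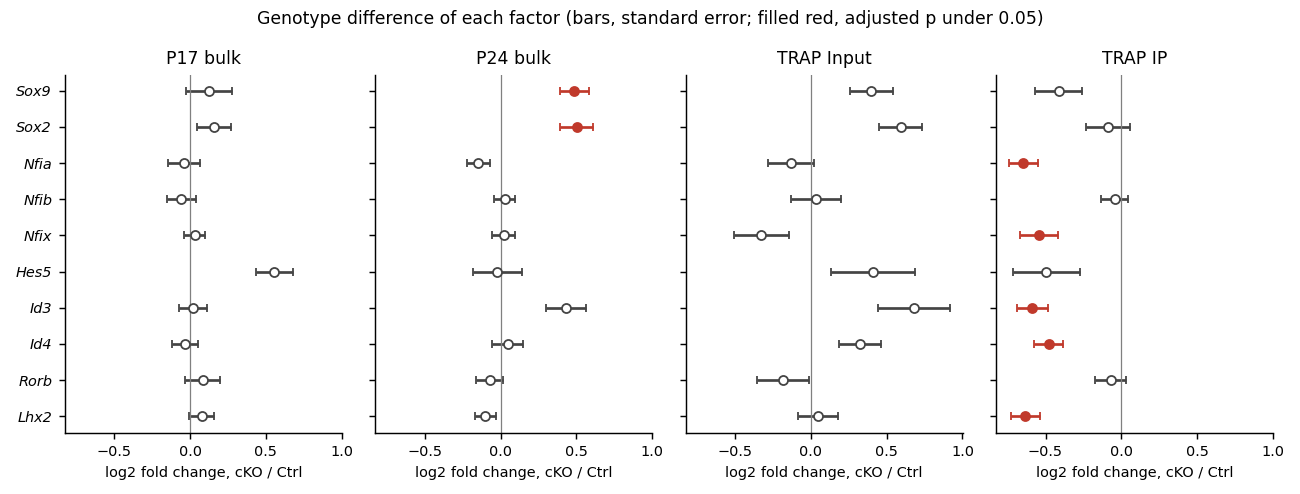
Log2 fold change of cKO over Ctrl for each of the 10 genes in the P17 bulk, P24 bulk, TRAP Input and TRAP IP libraries, on a shared axis; bars are standard errors and filled red points have an edgeR adjusted p under 0.05. Sox9 and Sox2 are filled to the right of 0 in P24 bulk, and Nfia, Nfix, Id3, Id4 and Lhx2 are filled to the left of 0 in IP.

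In the Input fraction of the same mice no factor was called, where 0.109% of the 23828 genes tested were, and DESeq2 and edgeR's exact test also called 0. At an unadjusted edgeR p under 0.05 there were 4 factors, and the share of all genes at that cut is not given here. Several factors that lay below 0 in IP lay above 0 here. Sox2 was at 35.8, 29.6 and 33.1 CPM in Ctrl Input and 49.6, 46.6 and 52.0 CPM in cKO Input (log2 fold change 0.59 ± 0.14, edgeR adjusted p = 0.454), and Sox9 at 19.05, 16.4 and 18.7 CPM against 23.997, 23.1 and 24.2 CPM (0.40 ± 0.14, adjusted p = 0.812). Both sets of libraries were without overlap and higher in cKO, as were those of Id3 (0.68 ± 0.24) and Id4 (0.32 ± 0.14), and Nfix did not overlap and was lower (-0.33 ± 0.18), so that 5 of 10 factors did not overlap where 11.9% of all genes did not. Id3 and Nfix lean on cKO Input replicate 1, which was at 65.9 CPM for Id3 against 40.3 and 34.5 CPM in the other cKO libraries, and at 175 CPM for Nfix against 272 and 259 CPM. Without that library the log2 fold changes were 0.35 for Id3, -0.15 for Nfix, 0.59 for Sox2 and 0.39 for Sox9, with none of the 10 called. The summed astrocyte markers were also higher in cKO Input, 3013 to 3433 CPM against 2011 to 2365 CPM, and the layer 4 markers lower, 95.3 to 133 CPM against 135 to 147 CPM. The 95.3 CPM was cKO Input replicate 1, and the other cKO libraries were at 133 and 127 CPM, just under the Ctrl range. The part of these cells in the levels of the factors was not tested.

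Within each mouse, the IP level divided by the Input level measures how strongly a factor was enriched. For 7 factors (Sox9, Sox2, Nfia, Hes5, Id3, Id4 and Lhx2) this ratio was lower in every cKO mouse than in every Ctrl mouse, as it was for 9.36% of the 24744 genes above 0 in each library. It lay between 18.7 and 20.5 in Ctrl and 5.28 and 11.3 in cKO for Id3, where the lowest value came from cKO mouse 1, whose Input library stood apart, and the other cKO mice were at 10.2 and 11.3. Without that mouse the lowest cKO ratio of the other factors named here moved by less, to 4.39 for Sox9, 6.17 for Sox2, 2.62 for Nfia, 5.17 for Hes5 and 6.43 for Id4, and not for Lhx2. With it, the ratio lay between 10.7 and 12.5 and 6.02 and 6.99 for Id4, and between 8.77 and 9.80 and 4.24 and 5.59 for Hes5, whose 3 Ctrl mice were close to each other by this measure although their IP levels were not. For Lhx2 the ratios were 5.64 to 5.80 in Ctrl and 3.31 to 3.70 in cKO, for Sox2 10.2 to 11.9 and 5.78 to 8.05, for Sox9 7.30 to 9.70 and 4.21 to 5.90, and for Nfia 3.36 to 4.36 and 2.32 to 3.09. Nfib, Nfix and Rorb overlapped between genotypes, Nfix through cKO mouse 1 (0.594). Without that mouse the Nfix ratios were 0.376 to 0.512 in cKO, just below the 0.514 to 0.644 in Ctrl, while Nfib and Rorb still overlapped.

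The interaction of fraction and genotype, which tests whether enrichment differed between cKO and Ctrl, called none of the factors, where 0.0582% of 25768 genes were called. Of the 10 estimates 9 were below 0. The median was -0.69 against -0.03 for all genes and -0.83 for the astrocyte markers, of which 0 of 12 were called. An unadjusted p under 0.05 was reached by 7 factors. The share of all genes at that cut is not given here, and the 0.0582% is at another cut. Id3 had the lowest estimate, -1.27 ± 0.27 (edgeR adjusted p = 0.113), Id4 was at -0.81 ± 0.16 (adjusted p = 0.0988) and Lhx2 at -0.69 ± 0.15 (adjusted p = 0.132), and Rorb was the factor above 0 (0.11 ± 0.20). Without cKO Input replicate 1, Id3, Id4 and Lhx2 were called (adjusted p = 0.0091, 0.0146 and 0.0161) and the number of genes called rose from 15 to 432. DESeq2 called 4 factors (Sox9, Id3, Id4 and Lhx2), and the fit with no filter on low counts called Id3. With the mouse as a block, which takes up the pairing of IP and Input, none of the factors was called either, where 0.0233% of genes were; 7 again had an unadjusted p under 0.05, and Hes5 had the lowest adjusted p (-0.89 ± 0.19, edgeR adjusted p = 0.252). The IP and Input comparisons share their mice with this interaction.

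In P24 bulk cortex, Sox9 and Sox2 rose in cKO mice and the other 8 factors were not called. Of 22495 genes tested 1.72% were called, 1.26% as higher, and 7.76% did not overlap between genotypes. Among the cKO mice, replicate 1 stood apart, at 12.7 to 15.8 against the others by the same chi-square measure, where those differed by 3.46 to 5.25. Sox9 was at 21.3, 19.0, 18.7 and 17.7 CPM in Ctrl and 22.9, 30.8, 24.9 and 29.1 CPM in cKO. No cKO mouse reached down to a Ctrl mouse, and the log2 fold change was 0.49 ± 0.09 (edgeR adjusted p = 0.0226). Sox2 was at 17.5, 17.7, 16.2 and 20.0 CPM in Ctrl and 20.0, 29.5, 26.4 and 25.3 CPM in cKO, where cKO replicate 1 lay just under Ctrl replicate 4 and the others lay clear of all Ctrl mice, with a log2 fold change of 0.50 ± 0.11 (edgeR adjusted p = 0.0376).

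Both calls depended on the set of mice. Without cKO replicate 1, the lowest cKO mouse for both genes, Sox9 was at 0.56 (adjusted p = 0.00243) and Sox2 at 0.60 (adjusted p = 0.00106), and 950 genes were called in place of 388. The Sox9 call was lost when Ctrl replicate 2, 3 or 4 or cKO replicate 2 or 4 was left out (adjusted p up to 0.0918) and in the joint fit of all 16 bulk libraries (adjusted p = 0.0619), and the Sox2 call when Ctrl replicate 1, 2 or 3 or cKO replicate 2, 3 or 4 was left out (adjusted p up to 0.126). The direction held in each of these fits, with log2 fold changes from 0.42 to 0.50. Id3 was at 15.5, 15.5, 14.0 and 16.99 CPM in Ctrl and 16.8, 27.2, 21.8 and 17.9 CPM in cKO, overlapping through cKO replicate 1, at 0.43 ± 0.13 (edgeR adjusted p = 0.163, and 0.0316 without that mouse). Of 16 alternatives only 1 called Id3, with log2 fold changes from 0.29 to 0.52 and an edgeR or DESeq2 adjusted p up to 0.334.

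The remaining 7 factors lay close to Ctrl at P24, with log2 fold changes from -0.15 (Nfia) to 0.05 (Id4) and overlapping groups. Nfix, the highest of them per kb, was at 256, 289, 307 and 240.1 CPM in Ctrl and 300.0, 265, 260 and 279 CPM in cKO. The median over all 10 factors was 0.02 against 0.00 for all genes. Summed astrocyte markers were lower in P24 cKO cortex, 6026 to 6568 CPM against 6649 to 7139 CPM in Ctrl, while the median log2 fold change of these 12 genes was 0.03, with 3 lower, 1 higher and 8 not called. Summed microglial markers overlapped (300.3 to 382 CPM against 308 to 339 CPM) through cKO replicate 1, and the other cKO mice lay between 348 and 382 CPM. The part of these cells in the levels of Sox9 and Sox2 was not tested.

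**Figure D3:**
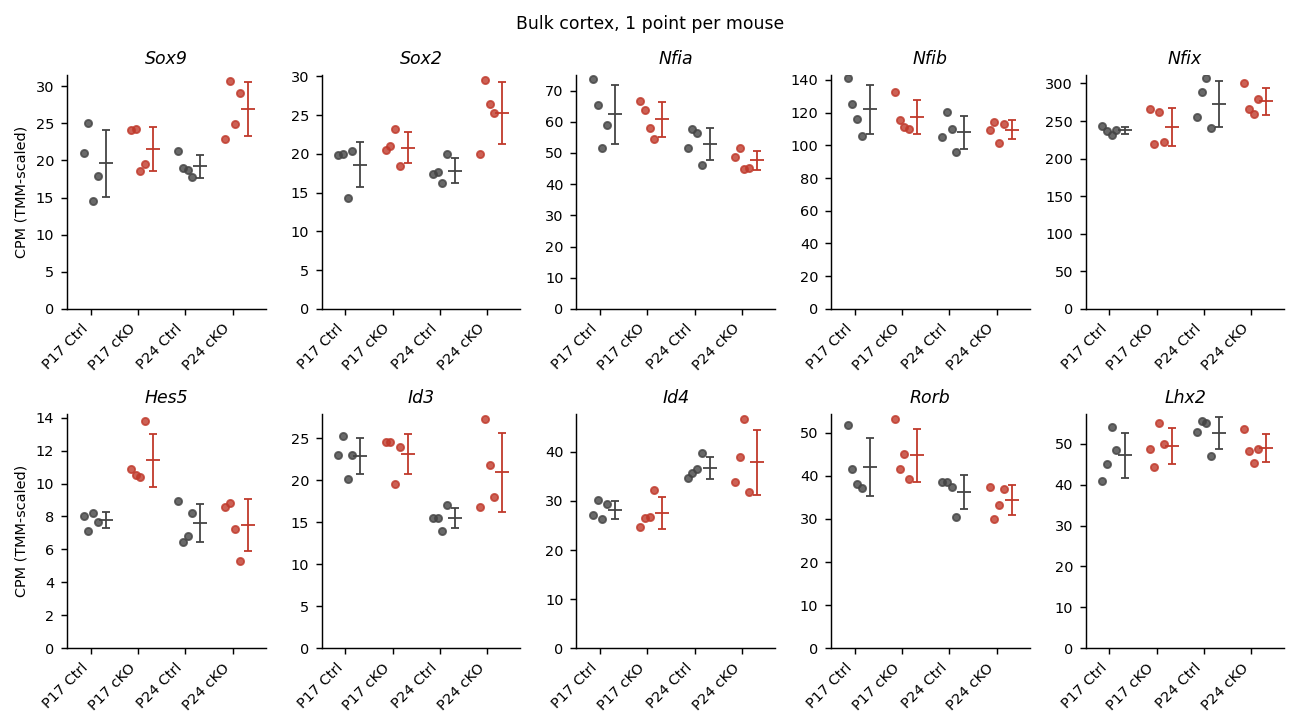
TMM-scaled CPM (linear axis from 0, a separate scale per panel) of the 10 genes in the bulk cortex of P17 and P24 mice, 1 point per mouse, with the mean and SD of each group (n = 4) beside the points. The P24 cKO points of Sox9 lie above all P24 Ctrl points, and the P17 cKO points of Hes5 (10.4 to 13.8 CPM) lie above all P17 Ctrl points (7.12 to 8.23 CPM).

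At P17, a week before the other bulk libraries, the factor that stood apart was Hes5. It was at 8.04, 7.12, 8.23 and 7.68 CPM in Ctrl mice and 10.9, 10.5, 10.4 and 13.8 CPM in cKO mice, every cKO mouse above every Ctrl mouse, with a log2 fold change of 0.56 ± 0.12. Of all genes, 2.83% did not overlap between genotypes at this age. This was not called over the 21201 genes tested (edgeR adjusted p = 0.238), of which 0.0943% were called, and over the other edgeR and DESeq2 settings and left-out libraries its adjusted p ran from 0.0268 (exact test) to 0.629. No label pairs the P17 cKO and Ctrl libraries, but same-numbered ones deviated together in every pair (r from 0.167 to 0.38). With the replicate block, which takes up this pairing from the data, Hes5 was called at a log2 fold change of 0.55 ± 0.12 (edgeR adjusted p = 0.0336), 1 factor among 109 genes (0.514%). Gm20421, on the opposite strand, had a log2 fold change of 0.20 ± 0.15.

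No other factor came near the threshold at P17, with or without the block. Their log2 fold changes ran from -0.06 (Nfib) to 0.16 (Sox2) without it. Sox9 was at 21.1, 25.1, 14.5 and 18.0 CPM in Ctrl and 24.1, 24.2, 18.5 and 19.5 CPM in cKO (0.13 ± 0.15, edgeR adjusted p = 1.00), and Sox2 at 19.9, 20.0, 14.3 and 20.3 CPM against 20.5, 21.01, 23.2 and 18.4 CPM (0.16 ± 0.11). Both groups overlapped. With DESeq2 0 factors were called. Hes5 was the only factor with an unadjusted edgeR p under 0.05, and the share of all genes at that cut is not given here.

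The bulk interaction between genotype and age called 11 of 23395 genes (0.0470%) and none of the factors, and DESeq2 called 0 factors. An unadjusted p under 0.05 was reached by 2 factors, Hes5 at -0.58 ± 0.21 (edgeR adjusted p = 0.632) and Id3 at 0.41 ± 0.18 (adjusted p = 0.739). The share of all genes at that cut is not given. The estimates for Sox9 and Sox2 were 0.36 ± 0.19 and 0.34 ± 0.17. A difference between the ages in the genotype effect on these 4 genes was therefore not shown. Hes5 at P24 was at 8.95, 6.47, 6.79 and 8.20 CPM in Ctrl and 8.56, 8.81, 7.27 and 5.31 CPM in cKO, at -0.02 ± 0.16.

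Between P17 and P24 in Ctrl mice, Id3 fell and Id4 rose, and the other 8 factors were not called, where 10.1% of 22215 genes were called lower at P24, 9.45% higher, and 23.0% did not overlap. Id3 went from 23.0, 25.3, 20.1 and 23.05 CPM to 15.5, 15.5, 14.0 and 16.99 CPM, without overlap, at -0.57 ± 0.09 (edgeR adjusted p = 0.00083). Id4 went from 27.2, 30.2, 26.2 and 29.3 CPM to 34.6, 35.8, 36.5 and 39.8 CPM, also without overlap, at 0.37 ± 0.07 (edgeR adjusted p = 0.0028). Both calls were kept whichever Ctrl library was left out. Each age is a table of its own, so age cannot be told apart from anything else that differed between the tables.

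Genes close to these factors, taken from lists of family members, signalling partners and cell types, were read beside them. The lists were drawn up with earlier results of these data known, so their counts are a description. In the IP of cKO mice, 7 of 11 tested close relatives fell and none rose, with a median of -0.48: Sox8 (-0.74), an astrocyte and oligodendrocyte relative of Sox9, Sox1 (-0.63), Id2 (-0.49) and Nfic (-0.47) were among them, each with an edgeR adjusted p under 0.05 in a test over all genes. Of 20 other transcription factors of astrocytes and their progenitors 13 fell and none rose (median -0.50), led by Klf15 (-1.01), Hopx (-0.94), Prdm16 (-0.79) and the Hedgehog effector Gli3 (-0.68). The joint fit of all TRAP-Seq libraries no longer called Id2, Nfic or Gli3, and without cKO replicate 2 Sox1 was not called (adjusted p = 0.0646).

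Genes of the signalling pathways were read in the same comparison, beside the 8.42% of all genes called lower and 11.6% called higher. Of 13 tested Notch pathway genes 3 fell, Hes6 (-0.76), the coactivator Maml1 (-0.74) and the Notch target Nrarp (-0.35), and of 16 BMP pathway genes 2 fell, the inhibitory Smad6 (-0.83) and the ligand Bmp6 (-0.66), and 1 rose, the ligand Bmp4 (0.68, edgeR adjusted p = 0.0494). Of 14 alternatives, 8 lost the call of Bmp4, 7 that of Bmp6, 6 that of Nrarp and 2 that of Smad6, with adjusted p up to 0.202, 0.134, 0.146 and 0.0665, and most of these left out 1 library: any but cKO replicate 3 for Bmp4 and Nrarp, any but Ctrl replicate 3 for Bmp6, and Ctrl replicate 3 or cKO replicate 2 for Smad6. Mature astrocyte genes, which are the astrocyte markers, had a median of -0.37 with 4 of 12 lower: the glutamate transporters Slc1a3 (-0.95) and Slc1a2 (-0.71), the connexin Gjb6 (-0.84) and glutamine synthetase Glul (-0.56), of which Slc1a2 was not called in the joint fit. The 10 immature astrocyte and progenitor genes, Hes5 included, were divided, with 3 higher and 3 lower, among them the intermediate filament Vim (3.13), the cyclin Ccnd1 (1.52) and the topoisomerase Top2a (-0.82). Of the markers of other cells, 1 of 8 neuronal genes was lower, 1 of 8 microglial and 2 of 5 tested mural genes were higher, and none of 5 layer 4, 8 oligodendrocyte lineage and 4 tested endothelial genes was called.

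**Figure D4:**
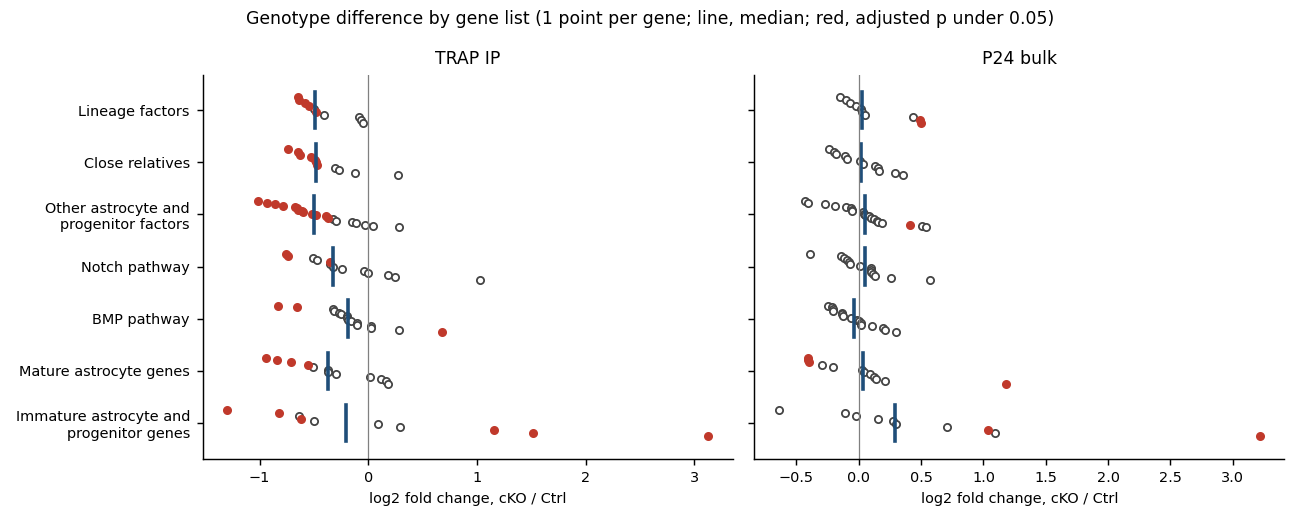
Log2 fold change of cKO over Ctrl in TRAP IP (left) and P24 bulk (right) for the 10 lineage factors and 6 lists of related genes, 1 point per tested gene, with the list's median as a line and genes of an edgeR adjusted p under 0.05 in red. In IP the medians of the factors, their relatives and the other astrocyte factors lie near -0.5, and in P24 bulk the medians of these lists lie near 0.

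In P24 bulk cortex the same lists held few calls. Rfx4, a transcription factor of radial glia and astrocytes, rose (0.41 ± 0.08, edgeR adjusted p = 0.0235, and up to 0.0825 where any mouse but cKO replicate 1 or 4 was left out) as 1 of 20 other factors, 0 of 12 close relatives, 0 of 14 Notch and 0 of 16 BMP pathway genes were called, and no neuronal, layer 4, oligodendrocyte lineage, microglial, endothelial or mural marker was. Of the mature astrocyte genes 1 rose, the folate enzyme Aldh1l1 (1.18), and 3 fell, Slc1a2, S100b and Slc1a3 (-0.41, -0.41 and -0.40; Slc1a3 was not called without Ctrl replicate 2 or 4 or cKO replicate 3 or 4, with adjusted p up to 0.0646), and of the immature genes Vim (3.22) and Ccnd1 (1.04) rose. At P17 none of these list genes was called. In Input, Aldoc (0.92, adjusted p = 0.0485) and Vim (3.41) were the list genes called. The Aldoc call was lost in 9 of 14 alternatives, among them each left-out library but cKO replicate 1, and the Vim call without any of the Ctrl libraries (adjusted p up to 0.466 and 0.277). The bulk and TRAP-Seq comparisons came from different mice, and IP and Input from the same mice.

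The gene whose level most resembled that of each factor was sought over the 28 libraries, as Pearson's r of log2 values with the mean of each table subtracted, among 13503 genes. This is a description, since all these correlations share the step between IP and Input libraries. The nearest gene to Sox9 was Sox2 itself (r = 0.983), to Sox2 it was Rfx4 (0.991), to Id3 the carboxypeptidase inhibitor Lxn (0.989), to Id4 the GABA receptor subunit Gabrg1 (0.993) and to Lhx2 the astrocyte gene Ndrg2 (0.989). Nfia was nearest to Tprkb (0.980), Nfib to Fbxo8 (0.981), Hes5 to Smpd2 (0.959), Rorb to the dystrophin gene Dmd (0.983) and Nfix to the kinase gene Wnk2 (0.974). Nfix ran against the rest, with r from -0.67 to -0.83 towards the other 9 factors, and Wnk2 was lower in IP too, at -1.37 on the log2 scale in Ctrl mice.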

How the data were processed

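RNA of the cerebral cortex was sequenced as 16 bulk libraries and 12 TRAP-Seq libraries (6 Input and 6 IP), 1 mouse per library, with Input and IP of the TRAP-Seq from the same mice. The authors primed reverse transcription with oligo-dT for bulk and selected RNA on oligo-dT beads for TRAP-Seq, mapped reads with STAR in Galaxy to mm10 and deposited tables of raw, unnormalized counts per Ensembl gene, a table for each experiment. The strand setting, annotation and counting tool are not given in the sources used here. Ages of the bulk libraries follow the names of their tables, and groups followed the GEO labels.

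The analysis used edgeR 4.0.16 in R 4.3.3, with TMM scaling, low genes removed by filterByExpr (minimum count 10, minimum total 15) and a two-sided quasi-likelihood test over all genes kept, with Benjamini–Hochberg adjustment and an adjusted p of 0.05 as the threshold. Each comparison of 2 groups was fitted on its own libraries, and the interactions on all bulk or all TRAP-Seq libraries. Standard errors are the log2 fold change over the square root of F. Of 53342 identifiers 53237 were found in GENCODE M21 (GRCm38), the source of symbols, exonic lengths and positions. Promoters came from RefSeq (GRCm38.p6).

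The factors and gene lists were chosen with earlier results of these data known. Named were every factor in every comparison, from each list at most the 4 genes of lowest adjusted p under 0.05 in a comparison, and for each factor the gene of highest correlation (log2 of CPM plus 0.5, mean CPM of at least 5 in each table). The targeted gene and 1 list gene are not reported here. The overlapping transcript Gm20421 was added after its values were seen.

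Same-numbered cKO and Ctrl libraries at P17 had deviations from their group means that correlated at 0.167 to 0.38 in all 4 pairs, above 0.1, so these numbers were taken to pair the samples from the data, and the fit with the replicate block is given beside the P17 result. IP and Input pair by mouse. Replicates differed by more than counting error in all 36 pairs (chi-square per degree of freedom 2.79 to 89.8), so none was counted as a duplicate. The alternatives were DESeq2 1.42.0, edgeR's exact test, the replicate block, scaling by RLE or by library size alone, testing every gene with 1 count or only those with 10 counts in each library, a joint fit of all libraries of an assay, and each library left out in turn. The steps were tested on simulated data.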

Additional observations from a re-analysis of the deposited data

Results flagged for a closer look

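Among the 40 combinations of a factor with a bulk group of 4 mice, 4 had a mouse far from the others by Dixon's criterion at the 95% level, and chance flags about 1 in 20 groups. Hes5 in P17 cKO was at 13.8 CPM in replicate 4 and between 10.4 and 10.9 CPM in the other mice. Without that mouse the log2 fold change of Hes5 at P17 was 0.45 in place of 0.56. Id3 in P17 cKO was at 19.6 CPM in replicate 3 against 23.9 to 24.6 CPM, and Sox2 in P17 Ctrl at 14.3 CPM in replicate 3 against 19.9 to 20.3 CPM. Rorb in P24 Ctrl was at 30.5 CPM in replicate 4 against 37.3 to 38.6 CPM.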

How the results depend on the processing

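The 10 factors gave 1440 values under the alternatives: 1365 kept direction and side of the threshold, 15 lost a call, 22 gained one and 38 turned direction, the last at sizes up to 0.11, none of them called; the causes were not tested. Genes called in P24 bulk were 598 with DESeq2, 608 with the exact test and 618 without a filter, against 388, and 1 factor was called in the joint fit. In P17 bulk 41 (DESeq2), 56 (exact test) and 55 (no filter) genes were called against 20, and the exact test called 1 factor. In IP the joint fit called 1684 genes and 3 factors against 4782 and 5; DESeq2 and library size alone called 6 factors and no filter called 7. In Input 127 (DESeq2), 136 (exact test), 127 (joint fit), 112 (no filter) and 15 (10 counts in every library) were called against 26. The fraction interaction gave 284 genes and 4 factors with DESeq2 and 189 genes and 1 factor without a filter, and the age interaction 54 (DESeq2) and 62 (no filter) genes.

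The replicate block gave 109 genes and 1 factor, Hes5, in P17 bulk, where the numbers were taken to pair the libraries from the data and no label does so. In the fraction interaction the block is the mouse, with 6 genes and no factor. Elsewhere cKO and Ctrl also shared only a number, which was not taken to pair them. Same-numbered deviations correlated at 0.029 to 0.218 in P24 bulk, 0.036 to 0.116 in IP and -0.034 to 0.102 in Input. Every library was closest to its own number in IP, but not in P24 bulk or Input. The block called 7 factors (Sox9 and Hes5 besides the 5) in IP, 8 genes in Input and 55 in the age interaction, and moved no other count of factors.

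With scaling by library size alone, Nfib in Input was at -0.012 and Nfix in the age interaction at 0.010, and without a filter the latter was at 0.0011. Leaving out each library gave 216 (without cKO replicate 2) to 950 (without cKO replicate 1) genes and 0 to 3 factors in P24 bulk, 11 to 19 genes in P17 bulk, 2633 to 4810 genes and 4 to 6 factors in IP, 4 to 112 genes in Input, 3 to 432 genes and 0 to 3 factors in the fraction interaction, and 4 to 149 genes in the age interaction. Log2 fold changes that turned then ran from -0.037 to 0.083 for Nfix, -0.10 to 0.11 for Hes5, -0.025 to 0.083 for Nfib and -0.070 to 0.12 for Id4 in P24 bulk. In P17 bulk they ran from -0.12 to 0.056 for Nfia, -0.12 to 0.022 for Nfib, -0.12 to 0.014 for Id4, -0.040 to 0.097 for Id3, -0.018 to 0.073 for Nfix and -0.012 to 0.20 for Rorb. In TRAP-Seq they ran from -0.30 to 0.032 for Sox2 in IP, -0.082 to 0.12 for Nfib in Input, and -0.0087 to 0.22 for Rorb and -0.19 to 0.027 for Nfib in the interaction. In the age interaction they ran from -0.068 to 0.053 for Nfix and -0.037 to 0.16 for Id4, and between ages in Ctrl mice from -0.17 to 0.094 for Sox9 and -0.12 to 0.038 for Hes5. Groups of 3 and 4 mice limit the precision, and at 3 counts per library the floors given above bound what depth can show.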
